A study of Rattus norvegicus with 294 samples.

Results

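Secreted and membrane proteins are made, folded and dispatched by a machinery that bone-forming cells use heavily, because they export type I collagen and other matrix proteins. The genes described here are 40 genes of that machinery and of the unfolded protein response, of which 39 had a probe set annotated to them alone; Sec23a was not among them. The array as a whole gave 14217 such genes. The 39 genes comprise 14 chaperones and folding enzymes, 4 stress regulators, 10 genes of the translocon and signal peptidase, and 11 genes of vesicle coats and cargo receptors. For each gene the probe set with the highest mean log2 signal was used; 8 of the genes had several, and the 39 genes had 50 probe sets in all. Mean log2 signals over all arrays were lowest for Dnajb9 (2.75), Lman1 (3.08) and Copb1 (3.84) and highest for Pdia6 (10.19). Of the probe sets not used, those of Sec61a1 averaged 4.93 and 2.77, those of Canx 6.80 and 4.46, that of Sec31a 3.43 and that of Golim4 5.26.

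A secretory protein is threaded into the endoplasmic reticulum (ER) through the Sec61 translocon, loses its signal peptide to the signal peptidase, and is folded by chaperones such as Hspa5 (BiP) and by protein disulfide isomerases. Folded cargo leaves in vesicles coated with COPII, while COPI vesicles and KDEL receptors carry escaped chaperones back. When unfolded protein accumulates, the unfolded protein response raises chaperone genes through the transcription factors Atf6 and Xbp1 and induces Atf4 and Ddit3 (CHOP) through the kinase Perk.

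The rats were female Sprague-Dawley rats, ovariectomized at 6 months of age and left untreated for 8 weeks, so the vehicle rats were ovariectomized as well. They received vehicle or an antibody against sclerostin, an osteocyte-secreted inhibitor of Wnt signalling and bone formation (Scl-Ab), at 3 or 50 mg/kg by weekly subcutaneous injection. Osteoblasts, lining cells and osteocytes were cut from sections of the third lumbar vertebra by laser capture, with calcein marking the forming surfaces, and the small amounts of RNA were amplified before hybridization. Vertebrae were taken on days 8, 29, 85 and 183 of dosing with both doses and vehicle. After the last dose they were taken on days 197 and 267 for 3 mg/kg and on days 237 and 309 for 50 mg/kg, each with vehicle rats of the same day. The arrays (97 of osteoblasts, 100 of lining cells, 97 of osteocytes; 120 vehicle and 174 antibody) fall into 60 groups, 55 of them with 5 arrays, 4 with 4 and 1 with 3 (osteocytes, 50 mg/kg, day 85). The labels do not say which arrays share a rat, so p-values measure the spread between the arrays of a group. Arrays have no read depth; how precise a value is depends on how many arrays stand behind it.

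Promoters of several chaperone genes share a short element. The ER stress response element, written CCAAT, any 9 bases, CCACG, is the textbook binding site of Atf6 with NF-Y. Of 33469 RefSeq promoters of rat build GRCr8, each from 250 bases before to 50 bases after a gene's start, 22 (0.0657%) held it on either strand. Promoters of 33 of the 39 genes were in that table, and 7 of them held the element: Hspa5, Hsp90b1, Creld2, Canx, Xbp1, Dnajc3 and Calr. A related element, written ATTGG, any base, CCACG, was in 17 promoters (0.0508%), among them those of Herpud1, Hyou1 and Dnajb11. They are printed to show the shared letters of the chaperone genes, 5′ to 3′ on the strand that reads the element forward, with the fixed letters in capitals and 12 bases on either side; the element of Dnajb11 lay at its gene's start.
Hspa5, chr3:38452961-38453003, plus strand: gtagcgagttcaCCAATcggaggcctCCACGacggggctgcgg
Hsp90b1, chr7:23012335-23012377, plus strand: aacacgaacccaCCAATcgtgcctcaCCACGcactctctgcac
Hsp90b1, chr7:23012439-23012481, minus strand: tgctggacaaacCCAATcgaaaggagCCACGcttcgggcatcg
Creld2, chr7:121789227-121789269, minus strand: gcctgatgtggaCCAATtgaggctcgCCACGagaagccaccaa
Canx, chr10:35158057-35158099, minus strand: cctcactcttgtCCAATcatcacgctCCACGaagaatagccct
Xbp1, chr14:84604546-84604588, plus strand: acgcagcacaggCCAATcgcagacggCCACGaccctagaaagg
Dnajc3, chr15:102432522-102432564, plus strand: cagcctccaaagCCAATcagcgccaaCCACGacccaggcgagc
Calr, chr19:40213123-40213165, minus strand: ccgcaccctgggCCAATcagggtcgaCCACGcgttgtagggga
Herpud1, chr19:10614809-10614843, minus strand: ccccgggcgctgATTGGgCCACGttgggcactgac
Hyou1, chr8:53602782-53602816, minus strand: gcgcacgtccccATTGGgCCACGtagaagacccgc
Hyou1, chr8:53602682-53602716, minus strand: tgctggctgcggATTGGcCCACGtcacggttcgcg

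Among elements of the CCAAT kind, that of Hspa5 lay nearest its gene's start, at positions -43 to -25 counted from that start, and that of Calr farthest, at -232 to -214. The letters TGACGTGG, a core to which Xbp1 binds, were in 199 promoters (0.595%) on either strand, among them those of Copb1, Kdelr3, Hyou1 and Copa; in Kdelr3, which encodes a KDEL receptor, they read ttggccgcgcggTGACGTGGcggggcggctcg at chr7:112959519-112959550 on the minus strand. In Hyou1 those letters overlap 1 of the printed elements. The amino acid response element TGATGCAAT, an Atf4 site, was in 63 promoters (0.188%) and in none of the 33 searched here. A match describes the letters in this window only.

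Cells and arrays differed in ways that touch the results. The labels' cell types carried their markers unevenly. Means given here are log2 signals of vehicle arrays on the values as deposited. The osteocyte genes Mepe and Dmp1 had 10.64 and 10.59 in osteocytes against 6.09 and 7.43 in osteoblasts. Sost, the gene of sclerostin, had low means of 2.86 in osteocytes (2.41 to 3.27) and 2.88 in osteoblasts (2.45 to 3.58). On that scale the median gene was 0.67 higher in osteoblasts than in osteocytes. Near-equal means on it do not show equal levels. On quantile-normalized values, 5 of 5 osteocyte markers that passed the filter were lower in osteoblasts than in osteocytes, and so were 6 of 6 osteoblast markers. Lining cells too were lower than osteocytes for 5 of 5 and 6 of 6. As deposited, the osteoblast gene Bglap (osteocalcin) had 10.42 in osteoblasts, 8.30 in lining cells and 11.11 in osteocytes. Marrow and osteoclast genes gave high signals in all 3 cell types on the same scale. Hbb had means of 13.14, 12.83 and 12.31, and Ctsk 11.78, 12.32 and 12.89, in that order. The distance from the median to the 90th percentile of an array, called signal range here, differed between groups from 2.63 to 3.56 on the log2 scale, and the class means moved with it. In such captured samples, fewer cells of a type and less RNA per cell cannot be told apart. In lining cells, replicate 3 of 50 mg/kg on day 8 lay below the others in all 4 classes; no gene of the set was called on that day with it or without it, although 1 was called at 50 mg/kg with array weights, with the range covariate or on leaving out replicate 1 of that dose.

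Between the cell types of vehicle rats, Kdelr3 had the largest difference of the 39 genes in each pair on the normalized scale. After quantile normalization of the 120 vehicle arrays its mean log2 signal was 7.07 in osteocytes (lowest 5.41, median 7.11, highest 8.12, n = 40), 6.04 in osteoblasts (4.49, 5.90, 7.41, n = 40) and 5.61 in lining cells (3.83, 5.61, 6.43, n = 40). The 3 ranges overlapped, and the order of the means was osteocytes, osteoblasts, lining cells. Osteocytes exceeded lining cells by 1.46 ± 0.10 (SE; limma, adjusted p = 2.87e-28) and osteoblasts by 1.03 ± 0.10 (adjusted p = 4.37e-18), and both differences were called in the same direction on the values as deposited.

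Other cell type differences were judged by whether they were called in the same direction on both scales, because the deposited values of the 3 cell types differ in overall level: their median gene was 0.42 higher in osteoblasts than in lining cells and 0.67 higher than in osteocytes. On quantile-normalized values 10 genes were higher and 3 lower in osteoblasts than in lining cells (33.6% of all genes tested were called), 5 higher and 20 lower in osteoblasts than in osteocytes (63.7%), and 2 higher and 20 lower in lining cells than in osteocytes (58.7%). On the deposited values the splits were 38 to 0 (94.8%), 37 to 1 (96.9%) and 18 to 6 (80.7%). Over all genes called there they were 11221 to 18, 11126 to 355 and 8484 to 1077. The rule of both scales is therefore one-sided. It favours genes higher in the first-named cell type and drops most that are lower there on the normalized scale. The shares of the set, 33.3%, 64.1% and 56.4% on the normalized values, lay near those of all genes.

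Called on both scales, 10 genes were higher in osteoblasts than in lining cells: Herpud1, an ER stress protein that assists degradation (0.38 on the normalized scale), Hyou1, a large Hsp70-type chaperone (0.22), the translocon genes Ssr4 (0.31), Ssr3 (0.18) and Sec61b (0.15), the COPII genes Sec24d (0.27), Sec13 (0.16) and Sec31a (0.15), Kdelr3 (0.44) and the cargo receptor Lman1 (0.16). With the probe sets of Ssr3 averaged, its difference was -0.0021. Against osteocytes, osteoblasts were higher on both scales for Herpud1 (0.40), Ssr4 (0.41), Sec61g (0.31), the COPI gene Copb1 (0.30) and Sec13 (0.26). Of the 20 genes lower there on the normalized scale, 1 (Kdelr3) was lower on both. Those lower on the normalized scale alone included Golim4 (-0.61), Kdelr2 (-0.52), Ssr2 (-0.51) and Sec61a1 (-0.50). Lining cells were lower than osteocytes on both scales for Xbp1 (-0.40), Ssr2 (-0.46), Sec24d (-0.72), Sec31a (-0.56), Kdelr2 (-0.52) and Kdelr3, and higher for Sec61g (0.35) and Copb1 (0.15). The other pathway genes, 79 genes of sensing, degradation, targeting, glycosylation and transport, were split 18 to 6, 21 to 39 and 18 to 36 in the same 3 comparisons on the normalized scale. Markers differed on that scale too. Osteoblasts and lining cells each had 6 of 7 B-lineage, 5 of 6 erythroid and 3 of 3 granulocyte markers higher than osteocytes. In each, 1 of 7 B-lineage markers was lower. Of 4 osteoclast markers, 4 and 3 were lower. Against lining cells, osteoblasts had 3 of 6 osteoblast, 2 of 5 osteocyte and 1 of 6 erythroid markers higher. There 3 of 4 osteoclast markers were lower and B-lineage markers split 1 to 1. Their part was not tested.

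In vehicle rats, part of the secretory genes had lower signals on day 85 than on day 8. In osteoblasts 20 of 39 genes fell and none rose (51.3%, against 40.6% of all genes), in osteocytes 19 fell and 1 rose (51.3% against 35.8%), and in lining cells 3 fell (7.69% against 3.84%). Of all genes called, 2961 fell and 1674 rose in osteoblasts, 3117 and 1131 in osteocytes, and 331 and 115 in lining cells. The median change of the set was -0.54 in osteoblasts, -0.52 in osteocytes and -0.24 in lining cells, beside medians of -0.11, -0.19 and -0.04 over all genes. Coat and cargo receptor genes had 4 of the 5 largest falls in osteoblasts: Sec24d, the COPII cargo adaptor, fell by 1.30 on the log2 scale (± 0.23, SE; adjusted p = 9.16e-06), Kdelr3 by 1.19, Copa by 1.13, Kdelr2 by 1.10 and Sec23b by 0.97. Among folding genes Pdia3, a disulfide isomerase for glycoproteins, fell by 1.18, Hspa5 by 0.88, Hsp90b1, the ER Hsp90, by 0.76, Canx, a lectin chaperone, by 0.71 and Dnajc3, an inhibitor of Perk, by 0.71.

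Spcs3, a signal peptidase subunit, fell by 1.05 and Ssr3 by 0.86 in the same osteoblast comparison, and the other 8 called genes fell by 0.47 (Xbp1) to 0.65 (Herpud1). The vehicle osteoblast values of Hspa5 on day 8 were 9.49, 8.98, 9.61, 9.64 and 9.49, and on day 85 they were 8.38, 8.77, 8.31, 8.72 and 8.61. Every day 85 array lay below every day 8 array. In osteocytes the largest falls were those of Kdelr2 (1.39 ± 0.23, adjusted p = 5.91e-06), Sec61a1, the translocon channel (1.35), Sec31a (1.06), Hsp90b1 (1.05), Ssr4 (1.03), Dnajc3 (1.0), Spcs1 (0.95), Pdia3 (0.95), Herpud1 (0.94), Copa (0.91), Sec23b (0.84) and Manf (0.82). Spcs2, of the signal peptidase, was the gene that rose (0.46). The other 2 probe sets of Sec61a1 differed by -0.33 and 0.14. In lining cells Dnajc3 (-1.17), Copa (-1.04) and Sec31a (-0.67) fell. The other probe set of Sec31a differed by 0.41 in osteocytes and 0.22 in lining cells.

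These falls went with a narrower signal range. In vehicle osteoblasts the range averaged 3.48 on day 8 and 3.04 on day 85, in osteocytes 3.20 and 2.68, and in lining cells 3.08 and 2.83. With the range as a covariate 2 genes were higher and 2 lower in osteoblasts, 1 was lower in osteocytes and 2 were lower in lining cells; with quantile normalization the splits were 3 to 16, 2 to 9 and 0 to 2. Markers moved as well. In osteoblasts 5 of 6 osteoblast, 3 of 3 granulocyte, 2 of 3 osteoclast, 2 of 3 osteocyte and 2 of 7 B-lineage markers fell, while 3 of 6 erythroid markers rose and 1 fell. In osteocytes 4 of 6 osteoblast, 3 of 4 osteoclast, 2 of 6 erythroid, 1 of 5 osteocyte and 1 of 7 B-lineage markers fell. In lining cells 1 of 6 osteoblast and 1 of 4 osteoclast markers fell and 1 of 6 erythroid markers rose. Their part in the result was not tested. Of the other pathway genes, 36 of 78 fell and 2 rose in osteoblasts, 44 of 79 fell and 3 rose in osteocytes, and 8 of 79 fell in lining cells, led by Os9, an ER degradation lectin (-1.38), Rpn2, an oligosaccharyltransferase subunit (-1.69), and Os9 (-0.98).

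Over all 8 days the vehicle class means of osteoblasts were lowest on day 183. The mean log2 signal of the 14 chaperones was 7.81, 7.87, 7.42 and 7.01 on days 8, 29, 85 and 183, and 7.88, 7.84, 7.72 and 7.40 on days 197, 237, 267 and 309. The 11 coat and cargo genes ran 6.72, 6.52, 5.95 and 5.72, then 6.41, 6.48, 6.48 and 6.13. Signal range ran 3.48, 3.53, 3.04 and 2.68, then 3.53, 3.44, 3.39 and 3.08. Sample titles are numbered in 3 series (days 8 to 85, day 183, and the later days), so differences in level between these spans cannot be told apart from that division. Hspa5 in osteoblasts went from 9.44 ± 0.27 (SD, n = 5) on day 8 to 7.98 ± 0.21 on day 183 and 9.58 ± 0.28 on day 197.

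**Figure D1:**
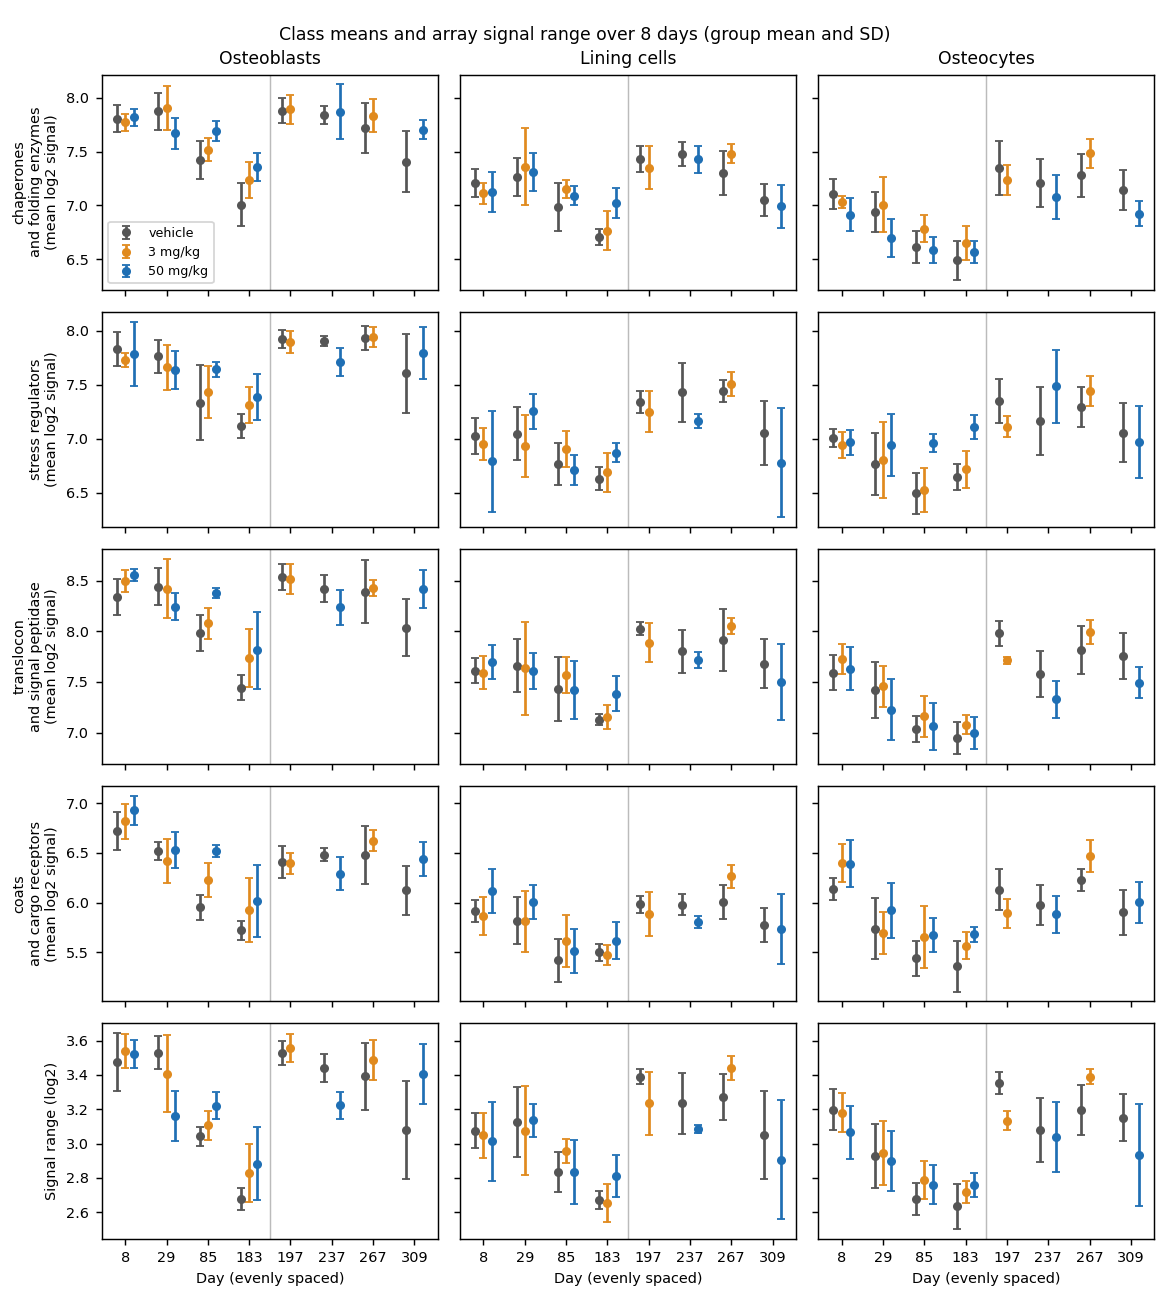
Mean log2 signal of each gene class (upper 4 rows) and signal range of the arrays (bottom row) on 8 days, as group mean and SD over 3 to 5 arrays, for vehicle, 3 mg/kg and 50 mg/kg; days are evenly spaced and the line divides dosing from the days after it. Vehicle osteoblast chaperones fall from 7.81 on day 8 to 7.01 on day 183 and stand at 7.88 on day 197, and the signal range takes the same course.

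With both doses joined on a dosing day, few of these genes were called against vehicle of the same day, and the smallest adjusted p was that of Hspa5, the ER Hsp70 chaperone that also holds the stress sensors inactive. On day 183 the osteoblast log2 signals of Hspa5 were 8.05, 7.71, 7.82, 8.17 and 8.15 in vehicle, 8.34, 8.45, 8.41, 8.71 and 8.77 at 3 mg/kg and 8.85, 8.61, 8.73, 9.05 and 8.62 at 50 mg/kg. All 10 antibody arrays lay above all 5 vehicle arrays. Both doses jointly gave a change of 0.68 ± 0.15 (SE), or 1.60-fold, with an adjusted p of 0.00259 in limma (higher in 10 of 10 arrays). The call held under each of the 6 alternative settings, with adjusted p-values up to 0.0245, and on leaving out each of the 15 arrays.

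The response of Hspa5 also differed between days. On day 8 its osteoblast values were 9.49, 8.98, 9.61, 9.64 and 9.49 in vehicle, 9.39, 9.43, 9.12 and 9.30 at 3 mg/kg and 9.32, 9.13, 8.88, 9.39 and 9.37 at 50 mg/kg, with overlapping groups and a change of -0.18 ± 0.15 (adjusted p = 0.622). Its day 183 response exceeded its day 8 response by 0.85 ± 0.21 (95% interval 0.44 to 1.27, adjusted p = 0.027); 0.561% of all genes were called in that comparison and Hspa5 was the 1 gene of the 39. Of the granulocyte markers 1 of 3 was higher in that comparison, and its part was not tested. Leaving out any of 7 of the 29 arrays ended the call, among them vehicle replicates 2 and 3 of day 183 and vehicle replicates 1, 3, 4 and 5 of day 8, with adjusted p-values up to 0.0988. The same difference was 0.68 ± 0.22 in lining cells (adjusted p = 0.367; 0.0172% of genes called) and 0.52 ± 0.22 in osteocytes (adjusted p = 0.323; 0.514%), and no gene of the set was called in either.

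**Figure D2:**
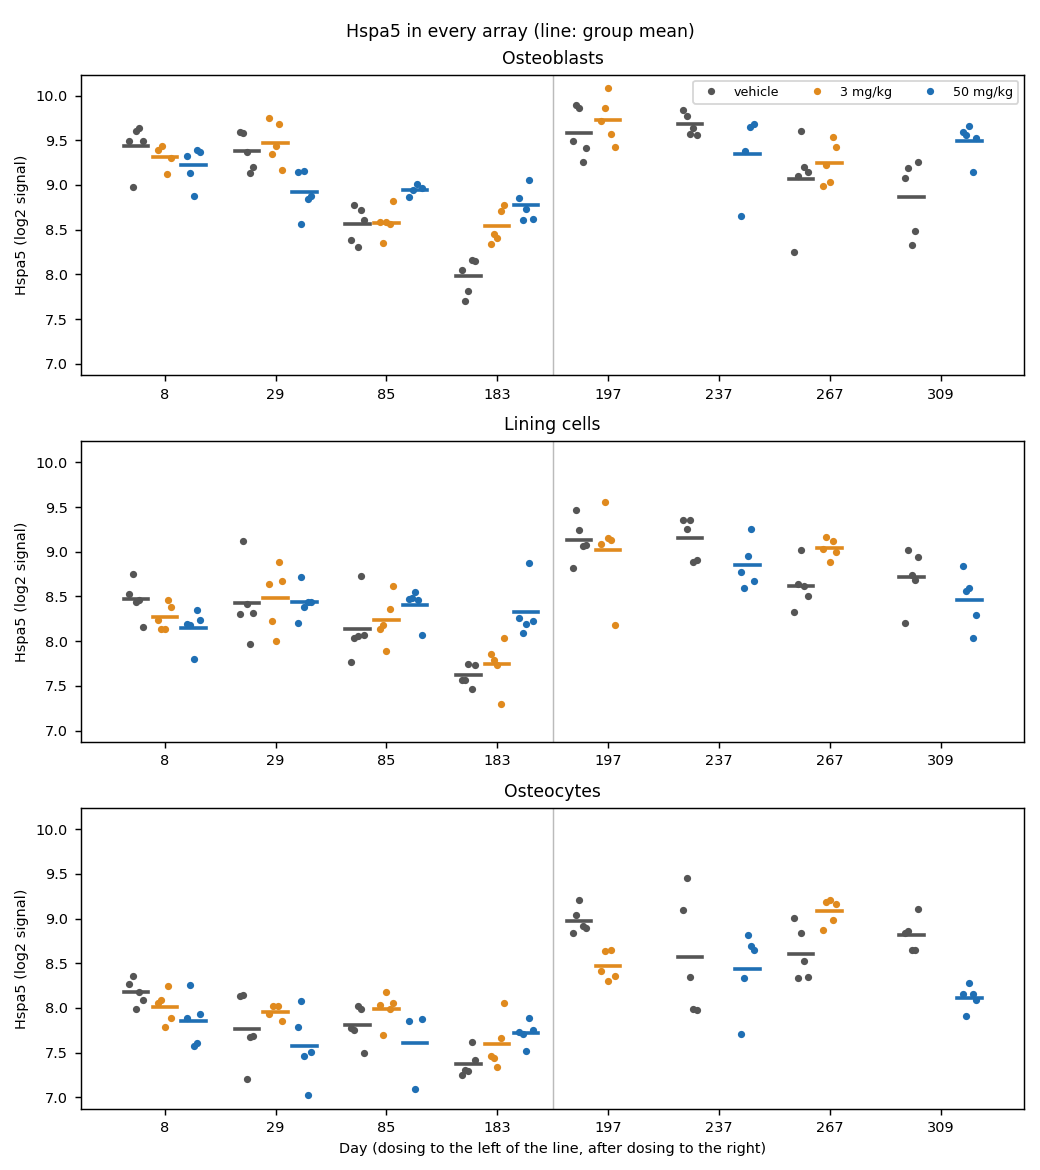
Hspa5 log2 signal in every array on 8 days, a panel for each cell type; points are arrays, short lines group means, colours vehicle, 3 mg/kg and 50 mg/kg, and the vertical line divides dosing from the days after it. On day 183 the osteoblast antibody arrays lie between 8.34 and 9.05, above the vehicle arrays at 7.71 to 8.17; on day 8 the groups overlap.

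On day 183 osteoblasts also had more Dnajb11, an Hsp40 partner of Hspa5, and more Herpud1. Dnajb11 read 7.55, 7.42, 7.20, 7.96 and 7.82 in vehicle, 8.06, 8.01, 8.13, 8.29 and 7.84 at 3 mg/kg and 8.00, 8.13, 8.21, 8.19 and 8.19 at 50 mg/kg; 1 antibody array lay within the vehicle range. Its change was 0.51 ± 0.12 (adjusted p = 0.00425, 10 of 10 arrays above the vehicle mean). The call ended without vehicle replicate 3 (0.0592), with quantile normalization (0.30, adjusted p = 0.0636) and with the compared groups alone (0.0639). Herpud1 read 6.85, 6.14, 6.04, 5.84 and 6.13 in vehicle, 6.50, 6.38, 6.25, 6.99 and 6.51 at 3 mg/kg and 6.29, 6.72, 6.96, 7.04 and 6.79 at 50 mg/kg, with vehicle replicate 1 inside the antibody range. Its change was 0.44 ± 0.13 (adjusted p = 0.0471), which passed 0.05 without any of 9 of the 15 arrays (up to 0.163) and with quantile normalization, the range covariate or the compared groups alone (up to 0.223).

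These 3 genes were 7.69% of the set, against 3.29% of all genes called on that day. All 3 are among the 10 genes whose promoters hold an element of either kind. The median change of those 10 was 0.29, and of the 23 genes whose promoters held neither 0.26, with 0 of them called. In other osteoblast comparisons the split differed. With both doses, 0 of the 10 and 2 of the 23 were called on day 8, and 2 and 1, all lower, on day 29. At 50 mg/kg 3 and 4, all lower, were called on day 29, 0 and 4 on day 85, and 3 and 1 on day 183. After 50 mg/kg 1 and 5 were called on day 309. On day 237 the 10 gave 1 higher and 1 lower, and the 23 gave 1 higher and 5 lower. On day 183, 12 of 14 chaperones, 4 of 4 stress regulators, 10 of 10 translocon genes and 11 of 11 coat genes had a positive change, and the median over all genes was 0.06. Signal range averaged 2.68 in vehicle against 2.83 and 2.88 at the low and high dose. Markers that rose were 3 of 3 granulocyte and 1 of 3 osteoclast markers, and their part was not tested. The count of 3 was 1 with quantile normalization or with the compared groups alone, 2 with the range covariate and 12 with array weights, and leaving out single arrays gave 1 to 8. Without replicate 5 of 50 mg/kg, whose coat genes averaged 5.38 against 6.14 to 6.23 in the other 4 arrays, it was 8. Shares of all genes under these settings are not given here. Of the other pathway genes 4 of 78 rose, including the collagen-folding genes Ppib (0.60) and P4hb (0.53) and the COPII scaffold Sec16a (0.50).

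Xbp1, whose spliced form drives chaperone and degradation genes, was not called on any dosing day. On day 183 its osteoblast values were 7.52, 7.76, 7.80, 8.22 and 8.00 in vehicle, 8.01, 7.69, 8.20, 8.32 and 8.15 at 3 mg/kg and 8.09, 8.31, 8.52, 8.38 and 7.36 at 50 mg/kg, which overlapped throughout. Its change was 0.24 ± 0.16 (adjusted p = 0.434). Over the 12 comparisons of both doses its change lay between -0.18, in lining cells on day 8, and 0.24. The array reads the gene's total signal, and splicing of Xbp1 was not analysed here.

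Early and middle days gave other genes in osteoblasts. On day 8 Sec13, a COPII coat subunit, read 9.18, 8.73, 8.98, 9.38 and 9.47 in vehicle, 9.34, 9.83, 9.46 and 9.59 at 3 mg/kg and 9.92, 10.22, 9.91, 9.45 and 9.91 at 50 mg/kg, and rose by 0.57 ± 0.14 (adjusted p = 0.00915, 9 of 9 arrays). Sec61b, a translocon subunit, read 8.89, 8.46, 8.33, 9.03 and 8.72 in vehicle, 9.01, 9.59, 9.0 and 9.54 at 3 mg/kg and 9.19, 9.29, 9.03, 9.38 and 9.21 at 50 mg/kg, and rose by 0.57 ± 0.17 (adjusted p = 0.0476, 9 of 9 arrays). The antibody arrays were the higher ones for both genes, with overlap at the edge of the vehicle range. Those 2 genes were 5.13% of the set against 3.64% of all genes, and the call of Sec13 ended without vehicle replicate 2 or 3 (adjusted p up to 0.0597) and with the compared groups alone (0.0724), that of Sec61b without any of 11 of the 14 arrays (up to 0.201). On the same day 3 of 6 erythroid markers rose, and their part was not tested. Serp1, a translocon-associated stress protein (0.58), and the COPI subunit Cope (0.56) were the 2 of 78 other pathway genes that rose.

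On day 29 the 3 genes called in osteoblasts with both doses were lower on the deposited scale, while 15 of the 39 changes lay above 0 and 24 below. Spcs3 read 9.29, 9.57, 8.85, 8.58 and 9.05 in vehicle, 9.19, 7.83, 8.15, 9.40 and 8.74 at 3 mg/kg and 8.26, 7.66, 8.32, 8.17 and 7.47 at 50 mg/kg; all 5 arrays of the high dose lay below all vehicle arrays. It fell by 0.75 on the log2 scale (± 0.20, adjusted p = 0.0073), and the call ended without vehicle replicate 2 (0.0603) and with the range covariate (0.386). Canx fell by 0.48 and Dnajb11 by 0.34. The other probe sets of Canx differed by -0.20 and 0.40. Atf4, the translation-stress factor, read 8.22, 8.23, 8.15, 8.07 and 8.24 in vehicle, 7.92, 7.52, 7.79, 8.23 and 7.92 at 3 mg/kg and 7.92, 7.71, 8.07, 7.87 and 7.88 at 50 mg/kg, a change of -0.30 ± 0.12 that was not called (adjusted p = 0.0834).

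The direction on day 29 depended on scaling. The 3 genes were 7.69% of the set against 15.0% of all genes, and the split of 0 higher to 3 lower became 3 to 1 with quantile normalization and 2 to 0 with the range covariate. Signal range averaged 3.53 in vehicle against 3.41 and 3.16 at the low and high dose. Markers moved as well: 2 of 6 osteoblast markers rose, and 2 of 3 osteoclast and 1 of 7 B-lineage markers fell. Their part was not tested. On day 85 no gene was called with both doses (1.76% of all genes). At an unadjusted p under 0.05 in limma 12 of 39 were higher, beside 1842 of 11412 over all genes in either direction. Of the 39 changes 37 were positive with a median of 0.23, beside 0.03 over all genes. The other pathway genes were split 2 to 5 on day 29, led by Eif2ak3, which encodes Perk (-0.66), and on day 85 Os9 (1.18) and the cargo receptor Tmed10 (0.53) rose.

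In lining cells 1 gene was called over the 4 dosing days. On days 8, 29 and 183 none was, with 4, 1 and 3 of 39 at an unadjusted p under 0.05 in limma. Over all genes that p was met by 1075, 627 and 759 of 11600. Dnajc3 on day 85 read 4.90, 5.73, 5.25, 6.65 and 6.53 in vehicle, 6.46, 6.78, 6.31, 7.06 and 6.97 at 3 mg/kg and 6.55, 6.84, 6.51, 7.24 and 6.82 at 50 mg/kg. Vehicle split into 3 low and 2 high arrays, and the antibody arrays overlapped the high ones. Its change was 0.94 ± 0.20 (adjusted p = 0.0167, 10 of 10 arrays), and the call ended without vehicle replicate 1 or 3 (up to 0.153), with array weights and with the compared groups alone (up to 0.81). The shares of all genes called in lining cells were 0.310%, 0.0431%, 0.0776% and 0.0517% on days 8, 29, 85 and 183, and no other pathway gene was among them.

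In osteocytes 1 gene was called, Kdelr2, a KDEL receptor that returns ER chaperones. On days 8, 29 and 183 none was, with 5, 3 and 4 of 39 at an unadjusted p under 0.05 in limma. All genes meeting that p were 874, 1117 and 1451 of 11859. Kdelr2 on day 85 read 7.25, 6.49, 6.91, 6.70 and 6.01 in vehicle, 7.57, 7.19, 6.61, 7.14 and 7.86 at 3 mg/kg and 7.77, 7.30 and 7.46 at 50 mg/kg. The 3 arrays of the high dose lay above all vehicle arrays. Its change was 0.72 ± 0.21 (adjusted p = 0.0255, 7 of 8 arrays), which ended without 3 mg/kg replicate 5, 50 mg/kg replicate 1 or vehicle replicates 2 or 5 (up to 0.146), with array weights and with the compared groups alone (up to 0.326). All-gene shares in osteocytes were 0.287%, 0.211%, 6.30% and 2.06% on the 4 days. Of the other pathway genes Creb3l1, a stress transcription factor of osteoblasts, rose on day 8 (0.84), and 4 of 79 rose on day 85, led by the collagen isomerase Fkbp14 (0.81).

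**Figure D3:**
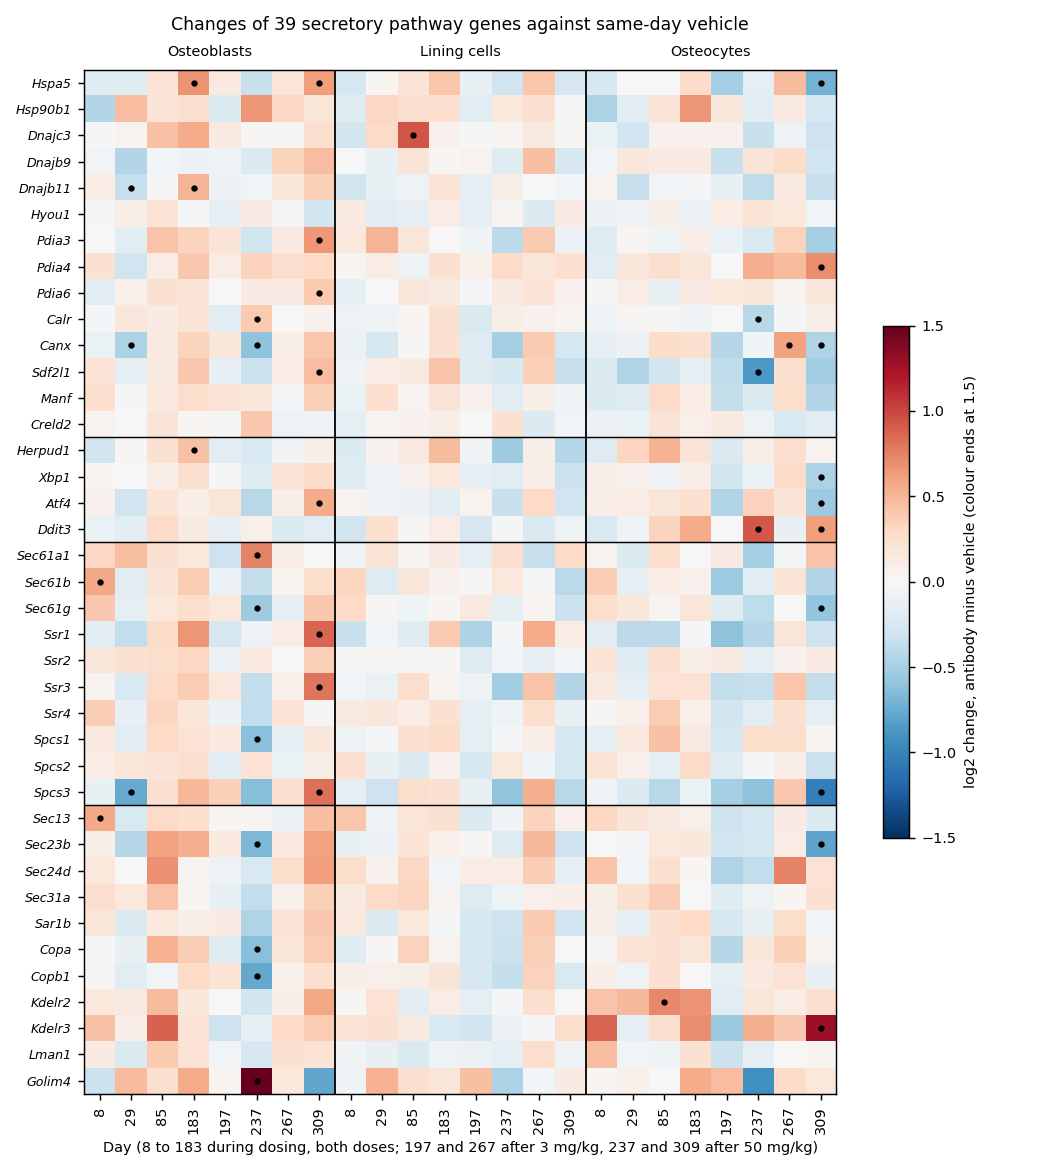
Log2 change of 39 genes against vehicle of the same day, for 3 cell types and 8 days (both doses together on days 8 to 183; 3 mg/kg on days 197 and 267; 50 mg/kg on days 237 and 309); red is higher, blue lower, a dot marks an adjusted p under 0.05 and horizontal lines divide the 4 classes. Osteoblasts on day 183 and day 309 are mostly red, with Hspa5 called on both days, while osteocytes on day 309 mix Kdelr3 (1.29) with Spcs3 (-1.02).

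Taken by dose, none of the 39 genes was called by limma at 3 mg/kg in any cell type on any of the 4 dosing days. At an unadjusted p under 0.05 in limma there were 16 higher and 2 lower of 156 tests in osteoblasts, 1 higher in lining cells and 9 higher and 1 lower in osteocytes. Over all genes tested, 791, 1240, 1060 and 1356 of 11412 met that p on days 8, 29, 85 and 183 in osteoblasts. In lining cells 660, 731, 1012 and 520 of 11600 did, and in osteocytes 312, 429, 1661 and 549 of 11859. The shares of all genes called at that dose on days 8, 29, 85 and 183 were 0%, 0.0701%, 0.0876% and 0.605% in osteoblasts, 0%, 0%, 0.0345% and 0% in lining cells, and 0.00843%, 0%, 1.46% and 0% in osteocytes. At 50 mg/kg they were 8.19%, 28.4%, 4.47% and 4.43% in osteoblasts, 0.621%, 0.207%, 0.983% and 1.0% in lining cells, and 0.928%, 6.50%, 10.1% and 6.38% in osteocytes. A gene called at the high dose and not at the low dose was not thereby shown to differ between doses.

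At 50 mg/kg on day 85 the osteoblast genes called were all from the coat and cargo receptor class, 6 of its 11 members and 0 of the other 28. Kdelr3 read 6.99, 7.15, 4.88, 6.35 and 6.14 in vehicle, 6.84, 7.0, 7.27, 7.15 and 6.61 at 3 mg/kg and 7.34, 7.37, 7.33 and 7.55 at 50 mg/kg. The 4 high-dose arrays lay above every vehicle array, of which replicate 3 was far below the rest. Without that array Kdelr3 rose by 0.74 and was not called (limma, adjusted p = 0.157). Its call also ended without vehicle replicate 5 or 50 mg/kg replicates 1, 2 or 4. With all arrays the rises were larger. Kdelr3 rose by 1.10 ± 0.31 (adjusted p = 0.0252), Sec24d by 0.87 ± 0.24 (0.0227), the COPII coat genes Sec23b by 0.77 ± 0.23 (0.0335) and Sec31a by 0.62 ± 0.18 (0.0261), Kdelr2 by 0.76 ± 0.24 (0.0446) and the COPI coat gene Copa by 0.66 ± 0.19 (0.0262), each in 4 of 4 arrays. The low-dose changes of the same genes were 0.67, 0.50, 0.43, 0.23, 0.19 and 0.39, none of them called, with 95% intervals from -0.26 at the lowest (Kdelr2) to 1.26 at the highest (Kdelr3).

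The class median at 50 mg/kg was 0.62, beside 0.33 for all 39 genes and 0.03 for all genes. The 6 genes are 15.4% of the set against 4.47% of all genes called. The vehicle change from day 8 to day 85, with the falls of these genes, uses the same day 85 vehicle arrays. With quantile normalization 6 genes were called and all rose, but none was called with the range covariate or with the compared groups alone, and leaving out single arrays gave 0 to 6. The count was 1 without vehicle replicate 4, and 3, 2, 2 and 0 without 50 mg/kg replicates 1, 2, 3 and 4. The other probe set of Sec31a differed by -0.12. Signal range averaged 3.22 at 50 mg/kg and 3.04 in vehicle. Markers moved as well: 5 of 6 osteoblast and 1 of 3 osteocyte markers rose, and 2 of 3 osteoclast and 1 of 7 B-lineage markers fell. Their part was not tested. Of 78 other pathway genes 6 rose, led by Os9 (1.56), the oligosaccharyltransferase subunit Ostc (0.81) and the procollagen export receptor Mia3 (0.67).

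**Figure D4:**
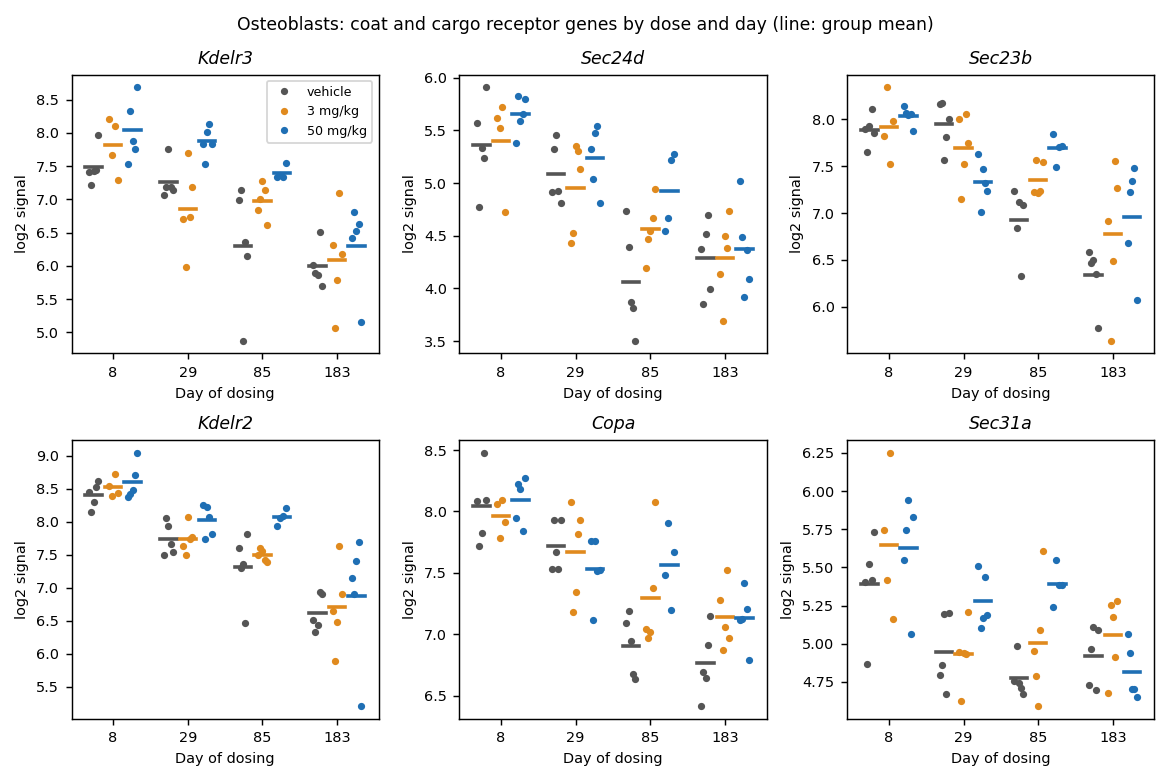
Log2 signal of 6 coat and cargo receptor genes in every osteoblast array on the 4 dosing days; points are arrays, short lines group means, colours vehicle, 3 mg/kg and 50 mg/kg. On day 85 the high-dose means lie above the vehicle means, by 1.10 for Kdelr3 and 0.62 for Sec31a, and the vehicle means are lower than on day 8.

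Other high-dose calls in osteoblasts differed by day. On day 8 Sec13 (0.73 ± 0.16, adjusted p = 0.0012) and Sec61g (0.52 ± 0.16, 0.0252) rose, 5.13% of the set against 8.19% of all genes. The call of Sec61g ended with quantile normalization (0.29, adjusted p = 0.19) and without vehicle replicates 2 or 3 or 50 mg/kg replicates 2 or 3 (up to 0.0765). On day 29 Spcs3 (-1.09 ± 0.23, 0.000276), Ssr1, of the translocon-associated complex (-0.77), Dnajb9 (-0.74), Canx (-0.69), Sec23b (-0.61), Dnajb11 (-0.50) and Hspa5 (-0.46) fell and Sec61a1 rose (0.51), 20.5% of the set against 28.4% of all genes; that split of 1 to 7 became 7 to 3 with quantile normalization and 5 to 0 with the range covariate. On day 183 Hspa5 (0.80 ± 0.17, 0.00142), Herpud1 (0.56), Dnajb11 (0.55) and Sdf2l1, a Dnajb11 partner in the ER (0.52), rose, 10.3% against 4.43%. Without replicate 5 of the high dose the day 183 count was 11, with array weights 18, and with quantile normalization or the compared groups alone 1. These counts are not set against the share of all genes under the same settings. At the high dose 5 of 6 erythroid markers rose and 2 of 3 osteoclast and 1 of 7 B-lineage markers fell on day 8. On day 29, 4 of 6 osteoblast markers rose and 1 fell, and 2 of 3 osteoclast and 2 of 7 B-lineage markers fell. On day 183, 3 of 3 granulocyte markers rose and 1 of 3 osteoclast markers fell, and the part of these cells was not tested. Hspa5 at 3 mg/kg on day 183 changed by 0.56 ± 0.17 (adjusted p = 0.0938, higher in 5 of 5 arrays).

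The other pathway genes at 50 mg/kg followed in osteoblasts with 5 of 78 higher on day 8, led by Asns, an Atf4 target (0.94), 7 higher and 11 lower on day 29, led by Creb3l1 (1.09), the COPI subunit Copz2 (1.08) and the degradation factor Edem1 (-0.84), and 5 higher on day 183, led by Ppib (0.73). In lining cells at 50 mg/kg, Dnajc3 rose on day 85 (0.98 ± 0.23, adjusted p = 0.0155), and on day 183 Hspa5 (0.71 ± 0.18, 0.0243) and Herpud1 (0.67 ± 0.16, 0.0218) rose. The lining cell values of Hspa5 on day 183 were 7.57, 7.56, 7.75, 7.46 and 7.74 in vehicle, 7.86, 7.79, 7.74, 7.29 and 8.03 at 3 mg/kg and 8.26, 8.10, 8.19, 8.87 and 8.23 at 50 mg/kg. Every high-dose array lay above every vehicle array, while the low dose overlapped vehicle. Leaving out any of 4 of the 10 arrays ended either call (adjusted p up to 0.175 for Hspa5 and 0.131 for Herpud1), and that of Hspa5 ended with quantile normalization (0.0608). In the same arrays 3 of 3 granulocyte and 1 of 6 erythroid markers rose, and signal range averaged 2.81 against 2.67 in vehicle. Their part was not tested.

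In osteocytes 2, 3 and 2 genes were called at the high dose on days 29, 85 and 183. They were 5.13%, 7.69% and 5.13% of the set, against 6.50%, 10.1% and 6.38% of all genes. On day 29 Sdf2l1 (-0.95 ± 0.22, adjusted p = 0.00192) and Dnajb11 (-0.47 ± 0.14, 0.0218) fell. On day 85 Kdelr2 (0.84), Ddit3, the CHOP transcription factor (0.80), and Herpud1 (0.68) rose, and on day 183 Kdelr2 (0.90 ± 0.23, 0.00678) and Ddit3 (0.83 ± 0.21, 0.00462) rose. Kdelr2 on day 183 read 7.07, 6.21, 5.38, 7.0 and 6.42 in vehicle, 6.85, 7.03, 7.04, 7.19 and 6.24 at 3 mg/kg and 7.12, 7.05, 7.62, 7.03 and 7.77 at 50 mg/kg; without vehicle replicate 3 its adjusted p was 0.101. Markers moved in these arrays too: 5 of 5 osteocyte markers rose on day 29, 4 of 5 on day 85 and 3 of 5 on day 183. On day 29, 3 of 3 granulocyte, 2 of 7 B-lineage and 2 of 4 osteoclast markers fell. Day 85 had 2 of 6 osteoblast, 2 of 4 osteoclast, 1 of 3 granulocyte and 1 of 7 B-lineage markers lower. Day 183 had 1 of 6 osteoblast and 1 of 4 osteoclast markers lower. The part of these cells was not tested. The day 85 calls rest on 3 high-dose arrays and ended with array weights and with the compared groups alone.

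The doses were then compared directly, over the 4 dosing days. In osteocytes 9 of the 39 genes differed, 6 lower and 3 higher at 50 than at 3 mg/kg, or 23.1% against 15.0% of all genes. In osteoblasts and lining cells none was called (2.53% and 0.647% of all genes), with 8 and 3 of 39 at an unadjusted p under 0.05 in limma. Over all genes that p was met by 1727 of 11412 in osteoblasts and 1485 of 11600 in lining cells. Chaperones were 5 of the 6 lower genes: Sdf2l1 (-0.61 ± 0.11, adjusted p = 3.31e-05), Calr, a calcium-binding lectin chaperone (-0.36 ± 0.08, 0.000418), Manf, a secreted ER stress protein (-0.34 ± 0.09, 0.0052), Hyou1 (-0.30 ± 0.09, 0.0153) and Dnajb11 (-0.22 ± 0.07, 0.0274). The sixth was Ssr1 (-0.52 ± 0.17, 0.0218). The higher genes were Kdelr3 (0.73 ± 0.17, 0.00125), Ddit3 (0.42 ± 0.11, 0.00343) and Atf4 (0.25 ± 0.09, 0.0422).

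Sdf2l1 was lower at the high dose on each of the 4 days, by 0.16, 1.0, 0.89 and 0.40. On day 29 it read 8.36, 8.54, 8.09, 7.98 and 8.70 in vehicle, 8.64, 7.69, 8.63 and 8.54 at 3 mg/kg and 8.16, 7.29, 6.55, 7.68 and 7.20 at 50 mg/kg. On day 85 it read 7.87, 7.42, 7.80, 8.25 and 8.31, then 7.57, 8.19, 7.83, 8.21 and 8.70, then 7.43, 6.76 and 7.45, in the same order of groups. The high dose had the lowest arrays on both days. It overlapped both other groups on day 29, and on day 85 it overlapped vehicle and lay below all low-dose arrays.

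Calr on day 183 read 9.14, 9.08, 8.50, 8.99 and 8.41 in vehicle, 9.08, 9.04, 9.03, 8.89 and 9.20 at 3 mg/kg and 8.42, 8.51, 8.69, 8.38 and 8.45 at 50 mg/kg, where the high-dose arrays lay below all low-dose arrays. Kdelr3 on day 29 read 7.74, 7.74, 7.07, 6.66 and 7.49 in vehicle, 6.64, 4.15, 7.32 and 7.28 at 3 mg/kg and 8.43, 8.05, 8.04, 7.60 and 8.13 at 50 mg/kg. Replicate 2 of the low dose lay far below the rest, and without it the difference over all 4 days was 0.55 (adjusted p = 0.00643). Ddit3 on day 183 read 7.01, 6.87, 6.44, 6.89 and 6.50 in vehicle, 6.99, 7.22, 6.91, 6.86 and 7.12 at 3 mg/kg and 7.46, 7.48, 7.55, 7.76 and 7.60 at 50 mg/kg. There the high dose stood above both other groups without overlap, whereas on days 8 and 29 the groups overlapped.

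The calls of Sdf2l1, Calr, Manf, Kdelr3 and Ddit3 held under the 6 alternatives and without each of the 37 arrays. Those of Dnajb11, Hyou1 and Ssr1 ended under 2 alternatives each, and that of Atf4 without any of 16 arrays (adjusted p up to 0.108). Marker levels moved with dose in the same osteocyte arrays: 4 of 5 osteocyte markers tested were higher at 50 than at 3 mg/kg, while 2 of 7 B-lineage and plasma cell markers, 3 of 3 granulocyte markers, 2 of 6 erythroid markers, 1 of 6 osteoblast markers and 3 of 4 osteoclast markers were lower. The mean log2 of the B-lineage list was 4.21 at 50 mg/kg (arrays from 3.64 to 4.62), 4.47 at 3 mg/kg (3.99 to 4.89) and 4.57 in vehicle (4.24 to 5.02), and that of the osteocyte list 6.84 (6.34 to 7.46), 6.15 (5.59 to 6.63) and 5.89 (5.15 to 6.67). Their part in the result was not tested. Of 79 other pathway genes 4 were higher and 5 lower, led by Ero1b, an ER oxidase (-0.60), Stt3b, a glycosylation enzyme (-0.46), and Copz2 (0.45).

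**Figure D5:**
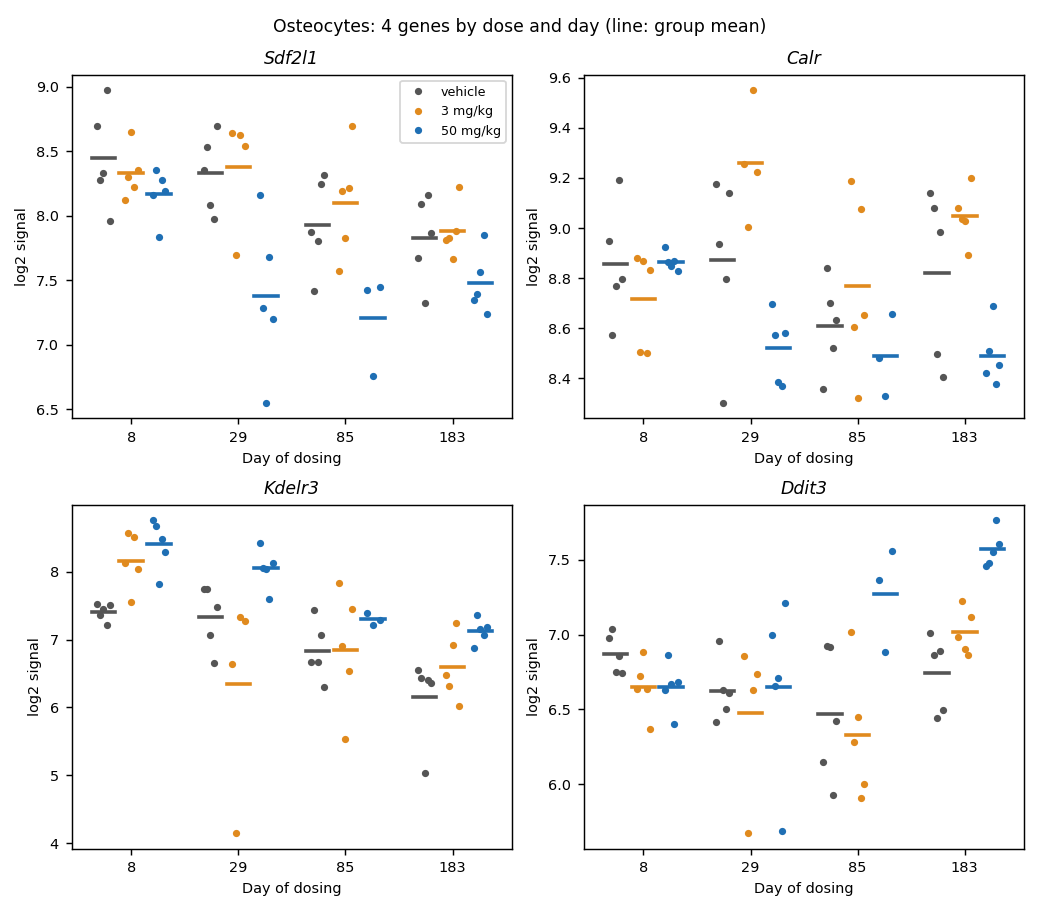
Log2 signal of Sdf2l1, Calr, Kdelr3 and Ddit3 in every osteocyte array on the 4 dosing days; points are arrays, short lines group means, colours vehicle, 3 mg/kg and 50 mg/kg. At 50 mg/kg Sdf2l1 lies lowest on days 29 and 85, Calr lies lower than at 3 mg/kg on day 183, and Ddit3 at 7.46 to 7.76 lies above the other groups on day 183.

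The responses of the cell types, averaged over both doses and the 4 dosing days, differed for few genes. Between osteoblasts and lining cells none of the 39 was called, nor was any gene tested (0%), with 2 of 39 at an unadjusted p under 0.05 in limma. That p was met by 670 of 12507 genes in all. The response of Sdf2l1 was higher by 0.42 ± 0.12 in osteoblasts than in osteocytes (adjusted p = 0.0264; 3.57% of all genes called) and by 0.42 ± 0.12 in lining cells than in osteocytes (0.0261; 2.67%). The response of Kdelr2 was lower by 0.53 ± 0.15 in lining cells than in osteocytes (-0.53, adjusted p = 0.02). The lining cell comparisons of both genes were not called with the compared groups alone, and that of Kdelr2 not with array weights. For Hspa5 the response of osteoblasts minus that of osteocytes was 0.13, with a 95% interval of -0.09 to 0.34. Osteocyte markers had the lower response in osteoblasts (4 of 5) and in lining cells (3 of 5) in these comparisons. A higher response was called for 1 of 3 granulocyte markers in each. It was also called for 1 of 6 osteoblast markers in osteoblasts and 1 of 6 erythroid markers in lining cells. The part of these markers was not tested.

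After the last dose of 3 mg/kg, 1 of the 39 genes was called. In osteoblasts none was called on day 197 or 267 (0.0789% and 0% of all genes), and in lining cells none (0.0603% and 1.08%). At an unadjusted p under 0.05 in limma there were 0 and 0 in osteoblasts and 0 and 6 in lining cells. Over all genes that p was met by 452 and 388 of 11412 and by 603 and 1518 of 11600. In osteocytes none was called on day 197 (1.11%). There 9 of 39 were lower at an unadjusted p under 0.05 in limma, beside 1616 of 11859 over all genes in either direction. Canx rose in osteocytes on day 267 (0.60 ± 0.16, adjusted p = 0.0194, 3.63% of all genes). The other probe sets of Canx differed by -0.03 and -0.03 there, and the call ended with quantile normalization, with the mean of the probe sets and with the range covariate. Other pathway genes gave 2 lower on day 197, Arf4 (-0.86) and Srpra (-0.73), and 3 higher on day 267, Arf4, a small GTPase of the Golgi (0.84), Syvn1, an ER ubiquitin ligase (0.71), and Kdelr1 (0.60), all in osteocytes.

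After 50 mg/kg, genes of the set were called in osteoblasts on both days. The days were not tested against each other, and the splits of higher and lower genes changed with scaling. On day 237, 3 genes were higher and 6 lower (23.1% of the set, 10.7% of all genes): Golim4, a Golgi transport protein (1.61 ± 0.31, adjusted p = 0.000528), Sec61a1 (0.74) and Calr (0.39) rose, and Copb1 (-0.77), Sec23b (-0.68), Spcs1 (-0.63), Copa (-0.62), Canx (-0.60) and Sec61g (-0.53) fell. In each of the 9, all 4 antibody arrays lay beyond all 5 vehicle arrays. Golim4 read 5.04, 4.81, 4.16, 4.50 and 4.40 in vehicle and 5.51, 5.32, 6.92 and 7.05 in the antibody group, but its other probe set differed by -0.71, and the mean of both was not called (0.45, adjusted p = 0.0978). The other probe sets of Canx differed by 0.22 and 0.10 and those of Sec61a1 by 0.41 and -0.0083. With quantile normalization 4 genes were higher and 4 lower, and with the range covariate 3 were higher and none lower. Signal range averaged 3.22 against 3.44 in vehicle. Of the markers 3 of 7 B-lineage genes fell, and 1 of 6 osteoblast genes rose and 1 fell. Their part was not tested.

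On day 309, 8 genes rose in osteoblasts and none fell (20.5% of the set, 10.5% of all genes): Ssr1 (0.87 ± 0.28, adjusted p = 0.0341), Spcs3 (0.82 ± 0.23, 0.0141), Ssr3 (0.80 ± 0.19, 0.00545), Pdia3 (0.65), Hspa5 (0.63 ± 0.17, 0.011), Atf4 (0.56), Sdf2l1 (0.47) and Pdia6, a disulfide isomerase (0.39). Of all genes called in that comparison, 985 rose and 218 fell. Hspa5 read 9.08, 9.19, 8.33, 8.49 and 9.25 in vehicle and 9.59, 9.56, 9.66, 9.15 and 9.53 in the antibody group, where vehicle replicates 3 and 4 were low and 1 antibody array lay within the vehicle range. None of the 8 was called with quantile normalization, with the range covariate or with the compared groups alone, and leaving out single arrays gave 0 to 14. Signal range averaged 3.41 in the antibody group and 3.08 in vehicle, and the median change of all genes was 0.10. Of the markers 2 of 3 osteoclast and 1 of 6 osteoblast genes rose. Their part was not tested. Other pathway genes were 8 lower of 78 on day 237, led by Ero1b (-0.84), and 10 higher on day 309, led by Rpn1 (0.82).

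Lining cells had no call on day 237 or 309 after 50 mg/kg (1.45% and 0.405% of all genes), with 5 and 3 of 39 lower at an unadjusted p under 0.05 in limma. That p was met by 1763 and 1243 of 11600 genes in either direction. Of the other pathway genes in lining cells, Copz2 rose (0.67) and Sesn2, a stress-induced gene, fell (-0.86) on day 237.

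In osteocytes Ddit3 was called higher on both days after 50 mg/kg. On day 237 Ddit3 read 7.06, 6.58, 6.59, 6.77 and 6.74 in vehicle and 7.36, 7.34, 7.64, 7.58 and 8.49 in the antibody group, a rise of 0.94 ± 0.21 (adjusted p = 0.000594). Sdf2l1 read 9.21, 9.65, 8.93, 8.70 and 8.52 in vehicle and 7.73, 7.87, 8.43, 8.49 and 8.15 in the antibody group, a fall of 0.87 on the log2 scale (-0.87 ± 0.22, 0.00299). The groups of both genes did not overlap, and both calls held under all 6 alternatives and without each array. Calr fell by 0.41 (adjusted p = 0.0495). The 3 genes were 7.69% of the set, against 13.2% of all genes. Of the markers 4 of 5 osteocyte genes rose, and 5 of 6 erythroid, 3 of 6 osteoblast and 2 of 7 B-lineage genes fell; their part was not tested.

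On day 309, 3 osteocyte genes were higher and 7 lower (25.6% of the set, 16.4% of all genes). Kdelr3 read 6.12, 6.49, 6.08, 4.96 and 6.47 in vehicle and 8.14, 7.07, 6.89, 7.36 and 7.09 in the antibody group, without overlap, and rose by 1.29 ± 0.33 (adjusted p = 0.00354). Pdia4, a disulfide isomerase (0.70), and Ddit3 (0.63, adjusted p = 0.024) rose too. The call of Ddit3 ended with the compared groups alone (0.12) and without vehicle replicates 3 or 4 or 50 mg/kg replicates 1 or 4 (up to 0.137), and that of Pdia4 with the compared groups alone (0.0903) and without any of 5 of the 10 arrays (up to 0.129). Spcs3 read 8.17, 8.22, 7.65, 7.79 and 8.44 in vehicle and 6.80, 6.68, 7.80, 7.16 and 6.72 in the antibody group, a change of -1.02 ± 0.25 (0.00231) with 1 antibody array inside the vehicle range. Hspa5 read 8.84, 8.86, 8.65, 8.65 and 9.11 in vehicle and 8.15, 7.90, 8.28, 8.15 and 8.09 in the antibody group, all below vehicle, a change of -0.71 ± 0.18 (0.00346).

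Sec23b (-0.79), Sec61g (-0.58), Atf4 (-0.55), Xbp1 (-0.47) and Canx (-0.45) were the other osteocyte genes that fell on day 309. The calls of Kdelr3, Spcs3 and Hspa5 held under the 6 alternatives and without each array. The other calls did not: that of Canx ended under 5 alternatives and without any of 9 of the 10 arrays, that of Xbp1 under 3 and without any of 7, and that of Atf4 under 3 and without 50 mg/kg replicate 5. That of Sec23b ended with the range covariate and without vehicle replicate 1 or 50 mg/kg replicate 5, and that of Sec61g with quantile normalization and the range covariate. The split of 3 to 7 became 4 to 3 with quantile normalization and 3 to 2 with the range covariate. Signal range averaged 2.94 in the antibody group and 3.15 in vehicle, and 3 of 3 granulocyte markers, 4 of 6 erythroid markers and 2 of 7 B-lineage markers were lower, while 3 of 5 osteocyte, 4 of 6 osteoblast, 1 of 4 osteoclast and 1 of 7 B-lineage markers were higher; their part was not tested. Of 79 other pathway genes 4 were higher, led by Copz2 (1.27), and 9 lower, led by Ero1b (-1.21) and Asns (-1.05); on day 237 the split was 2 to 2.

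The genes differed in how closely the arrays of a group agreed. The SD within groups was smallest for Calr and Pdia6 in osteoblasts (0.18 and 0.18) and largest for Golim4 in osteocytes (0.66), Kdelr3 in osteocytes (0.54) and Ssr1 in lining cells (0.54). In osteoblasts the SDs of Kdelr3, Golim4 and Hsp90b1 were 0.49, 0.49 and 0.47.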

How the data were processed

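Affymetrix rat arrays of cells cut from vertebral sections were analysed. Per the submitters' processing notes, the arrays were processed with RMA (Affymetrix Expression Console; affy 1.38.1 in R 3.0.1). The deposited values are linear intensity, from 2.94 to 28282, and were turned into log2 values here. Of 31042 probe sets, 20826 were annotated to 1 gene, 436 to several and 9780 to none, from GEO's platform annotation with symbols brought up to date. Background correction and scaling by the authors could not be varied here.

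Groups came from the labels. limma 3.58.1 in R 4.3.3 was fitted to all arrays of a cell type, with a mean for each treatment and day and equal weights. Genes were tested where their signal exceeded the array median in at least 5 arrays, which left 11412 genes in osteoblasts, 11600 in lining cells, 11859 in osteocytes, 12507 over all arrays and 11854 over vehicle arrays. P-values were adjusted by the Benjamini-Hochberg method over all genes tested, and a gene was called at an adjusted p under 0.05. The vehicle cell types were compared on quantile-normalized values with day as a factor. Fits were tested on simulated data.

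The genes and lists were chosen with earlier results of these data known. Named with a change is each gene called, or the 12 with the largest change where more were called. Values in every array were given for Hspa5 and Xbp1, for the genes with the smallest adjusted p per class, and for others chosen after their values were seen. Of the other pathway genes, 79 of the listed ones had a probe set and passed the filter in lining cells and osteocytes, and 78 in osteoblasts. Alternatives were no filter, quantile normalization, the mean of a gene's probe sets, array weights, signal range as a covariate, the compared groups alone and leaving out single arrays. C-terminal retention signals were not analysed here.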

Additional observations from a re-analysis of the deposited data

Results flagged for a closer look

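The mean log2 signal of each of the 4 gene classes was examined in each group of 4 or 5 arrays, which gave 236 sets of values. In 19 of them an array lay far from the others by Dixon's criterion, and chance flags about 1 in 20. The classes share their arrays, so flags of the same array are not independent of each other. In lining cells, replicate 3 of 50 mg/kg on day 8 was low in every class: chaperones 6.81 (others 7.15 to 7.26), stress regulators 5.97 (6.93 to 7.13), translocon 7.40 (7.74 to 7.82) and coats 5.72 (6.16 to 6.29). Replicate 5 of 3 mg/kg on day 197 was low for the translocon (7.55, others 7.92 to 8.06). Vehicle replicate 3 of day 267 was high for chaperones (7.67, others 7.17 to 7.25) and the translocon (8.45, others 7.66 to 7.84).

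In osteoblasts, replicate 4 of 50 mg/kg on day 8 was low for stress regulators (7.27, others 7.87 to 8.02), and replicate 2 of 3 mg/kg on day 29 was low for coats (6.03, others 6.45 to 6.56). Vehicle replicate 2 of day 29 was high for chaperones (8.17, others 7.74 to 7.85). Replicate 5 of 50 mg/kg on day 183 was low for coats (5.38, others 6.14 to 6.23). Vehicle arrays were high for stress regulators in replicate 2 of day 197 (8.07, others 7.86 to 7.90) and for the translocon in replicate 4 of day 237 (8.65, others 8.33 to 8.41).

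In osteocytes, replicate 2 of 3 mg/kg on day 29 was low for chaperones (6.63, others 7.09 to 7.16), the translocon (7.16, others 7.54 to 7.58) and coats (5.38, others 5.76 to 5.82). Replicate 4 of 50 mg/kg on day 29 was low for stress regulators (6.43, others 7.01 to 7.11). Replicate 5 of 3 mg/kg on day 183 was high for chaperones (6.92, others 6.54 to 6.64), and vehicle replicate 4 of day 309 was low for coats (5.51, others 5.93 to 6.09).

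The tests of a difference in response gave 4 results for these genes, each from limma with Benjamini-Hochberg adjustment. The osteoblast response of Hspa5 was higher by 0.85 on day 183 than on day 8 (adjusted p = 0.027). The response of Sdf2l1 was higher by 0.42 in osteoblasts (0.0264) and by 0.42 in lining cells (0.0261) than in osteocytes. The response of Kdelr2 in lining cells minus that in osteocytes was -0.53 (0.02).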

How the results depend on the processing

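The deposited table limits what these arrays can show: there are 3 to 5 arrays a group, the RNA was amplified, signals differ in range between groups, and the rat behind each array is not named. No paired analysis was possible because the labels' replicate numbers do not tie arrays of different groups to a rat or a batch. Over 187 called changes of single genes, the direction reversed in 1 with quantile normalization, 1 with the mean of the probe sets and 5 with the range covariate, and in 33 of 60 cell type differences on the deposited values. Besides the reversed changes, calls ended for 21 changes with array weights and 51 with the compared groups alone. They ended for 16 with the mean of the probe sets, 8 without the filter, 45 of 127 with quantile normalization and 86 with the range covariate. Calls held in the same direction for 81 of 127 with quantile normalization and 96 of 187 with the range covariate. Without 1 array at a time, 299 of 1527 recomputed gene changes lost their call. The cause was not tested. Counts of called genes under the alternatives are given without the share of all genes under the same setting, except on the deposited values. Whether the counts followed that share was not tested. Leaving out single arrays was not run for the responses compared between cell types or for vehicle cell types, which would take more refits than were allowed.

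With array weights, the number of genes called in osteoblasts was 4 on day 8 at 50 mg/kg (from 2), 5 on day 29 with both doses (from 3), 14 on day 29 at 50 mg/kg (from 8), 3 on day 85 at 50 mg/kg (from 6), 12 on day 183 with both doses (from 3) and 1 on day 183 at 3 mg/kg (from 0). Osteoblasts further had 18 on day 183 at 50 mg/kg (from 4), 4 on day 309 after 50 mg/kg (from 8), 2 between doses (from 0) and 3 between the day 183 and day 8 responses (from 1). In lining cells it was 1 on day 8 with both doses (from 0), 1 on day 8 at 50 mg/kg (from 0), 0 on day 85 with both doses (from 1), 0 on day 85 at 50 mg/kg (from 1), 3 on day 183 with both doses (from 0) and 8 on day 183 at 50 mg/kg (from 2). Lining cells further had 1 on day 267 after 3 mg/kg (from 0), 6 on day 237 after 50 mg/kg (from 0) and 2 between the day 183 and day 8 responses (from 0). In osteocytes it was 2 on day 8 with both doses (from 0), 3 on day 8 at 50 mg/kg (from 0), 7 on day 29 at 50 mg/kg (from 2), 0 on day 85 with both doses (from 1), 0 on day 85 at 50 mg/kg (from 3) and 2 on day 183 with both doses (from 0). Osteocytes further had 6 on day 183 at 50 mg/kg (from 2), 5 on day 197 after 3 mg/kg (from 0), 3 on day 267 after 3 mg/kg (from 1) and 1 between the day 183 and day 8 responses (from 0). It was 1 for the response of lining cells against osteocytes (from 2). With the compared groups alone in the fit, the number of genes called in osteoblasts was 0 on day 8 with both doses (from 2), 4 on day 8 at 50 mg/kg (from 2), 1 on day 29 with both doses (from 3), 0 on day 85 at 50 mg/kg (from 6), 1 on day 183 with both doses (from 3) and 1 on day 183 at 50 mg/kg (from 4). Osteoblasts further had 0 on day 309 after 50 mg/kg (from 8). In lining cells it was 0 on day 85 with both doses (from 1), 0 on day 85 at 50 mg/kg (from 1), 1 on day 267 after 3 mg/kg (from 0) and 1 between vehicle days 85 and 8 (from 3). In osteocytes it was 1 on day 8 with both doses (from 0), 1 on day 8 at 50 mg/kg (from 0), 1 on day 29 at 50 mg/kg (from 2), 0 on day 85 with both doses (from 1), 0 on day 85 at 50 mg/kg (from 3) and 1 on day 183 with both doses (from 0). Osteocytes further had 4 on day 183 at 50 mg/kg (from 2), 2 on day 197 after 3 mg/kg (from 0), 2 on day 267 after 3 mg/kg (from 1), 6 on day 309 after 50 mg/kg (from 10) and 1 between the day 183 and day 8 responses (from 0). It was 0 for the response of lining cells against osteocytes (from 2). With signal range as a covariate, the number of genes called in osteoblasts was 5 on day 29 at 50 mg/kg (from 8), 0 on day 85 at 50 mg/kg (from 6), 2 on day 183 at 50 mg/kg (from 4), 3 on day 237 after 50 mg/kg (from 9), 0 on day 309 after 50 mg/kg (from 8) and 3 between doses (from 0). Osteoblasts further had 4 between vehicle days 85 and 8 (from 20). In lining cells it was 1 on day 8 at 50 mg/kg (from 0). In osteocytes it was 3 on day 8 at 50 mg/kg (from 0), 4 on day 29 at 50 mg/kg (from 2), 2 on day 85 with both doses (from 1), 5 on day 85 at 50 mg/kg (from 3), 0 on day 267 after 3 mg/kg (from 1) and 6 on day 237 after 50 mg/kg (from 3). Osteocytes further had 5 on day 309 after 50 mg/kg (from 10) and 1 between vehicle days 85 and 8 (from 20). With quantile normalization, the number of genes called in osteoblasts was 3 on day 85 with both doses (from 0), 1 on day 183 with both doses (from 3), 1 on day 183 at 50 mg/kg (from 4), 0 on day 309 after 50 mg/kg (from 8), 1 between doses (from 0) and 2 between the day 183 and day 8 responses (from 1). In osteocytes it was 4 on day 29 at 50 mg/kg (from 2), 2 on day 85 with both doses (from 1), 6 on day 85 at 50 mg/kg (from 3), 1 on day 183 with both doses (from 0), 4 on day 183 at 50 mg/kg (from 2) and 0 on day 267 after 3 mg/kg (from 1). Osteocytes further had 11 between vehicle days 85 and 8 (from 20). On the deposited values the number of genes called was 38 for vehicle osteoblasts against lining cells (from 13) and 38 for osteoblasts against osteocytes (from 25). Without the filter it was 1 in osteoblasts on day 8 with both doses (from 2), and with the mean of the probe sets 0 in osteocytes on day 267 after 3 mg/kg (from 1). Without 1 array at a time, the number of genes called in osteoblasts was 0 to 3 on day 8 with both doses, 1 to 3 on day 8 at 50 mg/kg, 0 to 6 on day 29 with both doses, 3 to 10 on day 29 at 50 mg/kg, 0 to 3 on day 85 with both doses and 0 to 6 on day 85 at 50 mg/kg. Osteoblasts further had 1 to 8 on day 183 with both doses, 0 to 1 on day 183 at 3 mg/kg, 1 to 11 on day 183 at 50 mg/kg, 0 to 14 on day 309 after 50 mg/kg, 0 to 2 between doses and 0 to 2 between the day 183 and day 8 responses. In lining cells it was 0 to 1 on day 8 at 50 mg/kg, 0 to 1 on day 85 with both doses, 0 to 1 on day 85 at 3 mg/kg, 0 to 1 on day 85 at 50 mg/kg, 0 to 2 on day 183 at 50 mg/kg and 0 to 1 on day 237 after 50 mg/kg. Lining cells further had 2 to 5 between vehicle days 85 and 8. In osteocytes it was 1 to 6 on day 29 at 50 mg/kg, 0 to 2 on day 85 with both doses, 0 to 1 on day 85 at 3 mg/kg, 0 to 3 on day 85 at 50 mg/kg, 0 to 1 on day 183 with both doses and 1 to 3 on day 183 at 50 mg/kg. Osteocytes further had 0 to 1 on day 267 after 3 mg/kg, 2 to 6 on day 237 after 50 mg/kg and 6 to 11 on day 309 after 50 mg/kg.

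With the range covariate the changes that reversed were those of Sec23b in osteoblasts at 50 mg/kg on day 29 (0.031), of Xbp1 (0.13) and Sar1b (0.039) in osteoblasts and of Atf4 (0.15) and Sec23b (0.010) in osteocytes between vehicle days 85 and 8. With quantile normalization Dnajb11 reversed in that osteocyte comparison (0.043). With the mean of the probe sets Ssr3 reversed between vehicle osteoblasts and lining cells (-0.0021). For osteoblasts minus lining cells the deposited log2 differences that reversed were Sar1b 0.27, Copa 0.22 and Golim4 0.079. For osteoblasts minus osteocytes the deposited log2 differences that reversed were Hsp90b1 0.49, Pdia4 0.44, Pdia6 0.39, Calr 0.37, Sdf2l1 0.55, Manf 0.41, Creld2 0.50, Xbp1 0.44, Atf4 0.51 and Sec61a1 0.30. Also reversed there were Ssr2 0.22, Spcs2 0.59, Sec24d 0.33, Sec31a 0.39, Sar1b 0.48, Copa 0.39, Kdelr2 0.22, Lman1 0.32 and Golim4 0.17. For lining cells minus osteocytes the deposited log2 differences that reversed were Hsp90b1 0.0081, Hyou1 0.025, Pdia4 0.022, Pdia6 0.038, Calr 0.024, Manf 0.0067, Creld2 0.071, Atf4 0.07, Ssr1 0.025 and Spcs1 0.11. Also reversed there were Spcs2 0.092.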
